A study of Mus musculus with 3 samples.

Results

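Dnmt1, Dnmt3a, Dnmt3b and Tet3, 4 enzyme genes that write or remove DNA methylation, were examined in RNA of mouse 2-cell embryos. They were chosen by name, as 4 of 21938 protein-coding genes in the annotation used, and each was read from a fixed span of the mm9 genome. The spans were chr9:20711000-20765000 for Dnmt1, chr12:3806000-3914500 for Dnmt3a, chr2:153474500-153513600 for Dnmt3b and chr6:83312000-83409500 for Tet3. There was 1 group of 3 litters, collected at embryonic day 1.5, and no second condition to compare it with. Mothers were of mixed strain with C57/Bl6J, homozygous for a floxed allele of LSD1 (Kdm1a, a histone demethylase gene) and negative for ZP3::Cre, a transgene that drives Cre recombinase in growing oocytes. The gene was therefore floxed but not deleted in these mothers, and the series calls the embryos wild type. The fathers were wild type CB6 males by one label and C57/Bl6J by another. Each library pooled the embryos of a litter, and RNA was amplified by SPIA, an isothermal method that copies RNA along its length. The number of embryos in a litter is not given, so fewer cells and less RNA per cell cannot be told apart.

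Methyl groups on cytosine are copied onto the new strand at DNA replication by the maintenance enzyme Dnmt1. Dnmt3a and Dnmt3b set methylation on unmethylated sites, and Tet3 oxidises methylcytosine, a step towards its removal. In the mouse zygote and 2-cell embryo messenger RNA is made by the oocyte or by the first transcription of the embryo, and Tet3 is known for oxidising the paternal genome after fertilisation. Oocytes are known to start Dnmt1 transcripts at a first exon of their own, upstream of the one used in somatic cells.

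The libraries held 34014013, 32431630 and 40474940 nuclear alignments in litters 1 to 3. Every alignment was 72 bases long and ungapped, so reads across an exon junction are absent, and an exon shorter than 72 bases cannot hold a whole alignment. Levels are alignments wholly inside exons, per kb of possible start positions and per 1000000 nuclear alignments (RPKM). The strand of an alignment is not known.

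The sequences that follow are coding exons of the 4 genes, shown for where coverage is high and where it is lacking. Letters come from GENCODE M21 transcripts, in the direction of the gene, and capitals mark bases covered by at least 5 reads in all 3 litters. Exon positions on mm9 come from laying the exon lengths and distances of each gene model on the alignments and are known to within a few bases. The first 4 sequences are neighbouring Dnmt1 exons on the minus strand of chromosome 9, of which exon 14 is shorter than an alignment.
Dnmt1 exon 10, chr9:20736560-20736644: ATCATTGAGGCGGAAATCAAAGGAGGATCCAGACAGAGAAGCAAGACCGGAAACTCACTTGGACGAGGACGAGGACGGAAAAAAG
Dnmt1 exon 12, chr9:20733493-20733574: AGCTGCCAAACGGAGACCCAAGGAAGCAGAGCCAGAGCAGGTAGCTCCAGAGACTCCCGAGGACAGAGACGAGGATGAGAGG
Dnmt1 exon 14, chr9:20731251-20731293: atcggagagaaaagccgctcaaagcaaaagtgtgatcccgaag
Dnmt1 exon 15, chr9:20731076-20731156: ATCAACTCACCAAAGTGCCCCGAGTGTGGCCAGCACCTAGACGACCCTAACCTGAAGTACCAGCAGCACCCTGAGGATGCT
Exon 22 has the same length in the paralogs Dnmt3a and Dnmt3b, and is shown for both because its coverage separates them.
Dnmt3a exon 22, chr12:3906764-3906882, plus strand: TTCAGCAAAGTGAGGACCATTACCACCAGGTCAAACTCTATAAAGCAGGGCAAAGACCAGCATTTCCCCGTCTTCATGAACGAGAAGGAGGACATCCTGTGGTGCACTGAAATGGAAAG
Dnmt3b exon 22, chr2:153510094-153510212, plus strand: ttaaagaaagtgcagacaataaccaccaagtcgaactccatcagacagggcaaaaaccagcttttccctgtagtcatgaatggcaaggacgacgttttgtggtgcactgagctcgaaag
The best covered coding stretch of Dnmt3b, within exon 15, had reads in litters 1 and 2 and none in litter 3.
Dnmt3b exon 15, chr2:153500635-153500734, plus strand: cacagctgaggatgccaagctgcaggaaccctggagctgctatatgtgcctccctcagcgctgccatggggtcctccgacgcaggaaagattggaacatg
The last is the most covered coding stretch of Tet3, inside its exon of 2158 bases.
Tet3 exon 3, chr6:83353325-83353424, minus strand: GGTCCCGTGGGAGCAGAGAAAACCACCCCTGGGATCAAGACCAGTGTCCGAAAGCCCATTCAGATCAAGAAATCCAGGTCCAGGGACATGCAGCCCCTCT

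The gene models were placed with different certainty. For Dnmt1, 1356 distinct start positions, summed over litters, lay inside exons of the model Dnmt1-203 at its place, against at most 302 at places over 200 bases away in the span. A search of the whole of chromosome 9 found the same place as best in 3 of 3 litters. For Dnmt3a (Dnmt3a-201), 1351 distinct starts lay inside exons at the place used, against at most 1180 elsewhere in the span, and 2 of 3 litters had the same best place on the chromosome. For Tet3 (Tet3-202) the numbers were 5489 and 5181, and 1 of 3 litters had the same best place. The Dnmt3a and Tet3 places were nevertheless the best of their whole chromosomes with the litters summed. The model of Dnmt3b (Dnmt3b-202) was not found by the chromosome search, whose best place lay outside the span. Inside the span, 368 distinct starts fell in its exons at the place used, against at most 228 elsewhere, and litter 3 alone preferred a place 131 bases away. Its exon values are therefore less certain than those of the other genes.

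**Figure D1:**
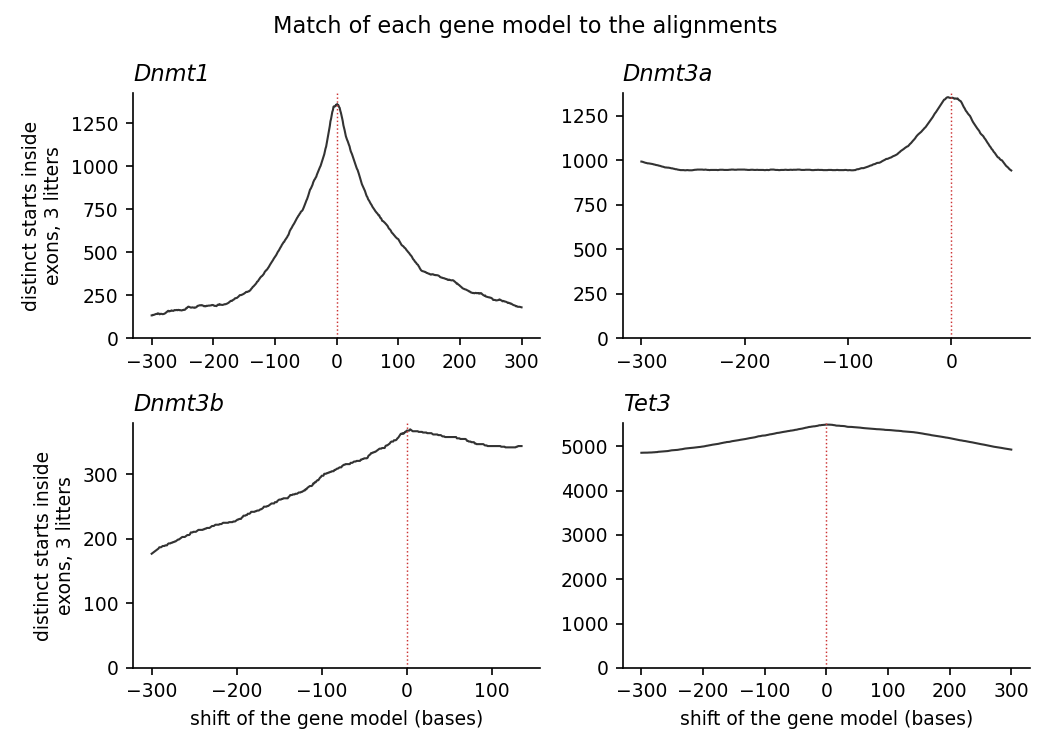
Distinct alignment start positions inside exons (y axis, summed over 3 litters) as each gene model is shifted along its span (x axis, bases, 0 at the place used, dotted line). The peak is sharp for Dnmt1, with 1356 starts at the place used, and broad for Tet3 and Dnmt3b, whose alignments lie mostly in a few long exons.

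Per length of exon over whole models, Tet3 and Dnmt1 stood highest, Dnmt3a lower and Dnmt3b lowest on average. The rank of Dnmt3a, and the order of Tet3 and Dnmt1 in litter 1, depend on the long annotated last exons of Dnmt3a and Tet3. Dnmt1 had 7.85, 6.35 and 7.32 RPKM in litters 1 to 3, a mean of 7.17 ± 0.762 (SD, n = 3). Tet3 had 7.52, 13.3 and 15.9 RPKM in litters 1 to 3, a mean of 12.2 ± 4.29 (SD, n = 3). Litter 1 was the low one for Tet3, and there Tet3 and Dnmt1 were at about the same level over whole models. The last exon of Tet3 holds 7382 start positions of the 10.137 kb in its model and had 3.11 RPKM in litter 1. Its exon 3 had 24.3 RPKM in that litter. Dnmt3a had 2.24, 4.80 and 2.55 RPKM, a mean of 3.20 ± 1.40 (SD, n = 3), with litter 2 the highest. Its last exon holds 6767 start positions of the 8.106 kb in the model, and 33.7%, 25.5% and 25.2% of its bases were covered. The 16 exons from exon 7 to exon 22 had 3.98, 31.1 and 8.21 RPKM in litters 1 to 3. These lay below the whole models of Dnmt1 and Tet3 in litter 1 and above both in litter 2. In litter 3 they lay above Dnmt1 and below Tet3. Dnmt3b had 2.18, 0.459 and 2.21 RPKM, a mean of 1.62 ± 1.00 (SD, n = 3), with litter 2 the lowest. Over whole models the 2 de novo enzymes thus deviated in opposite directions in litter 2 and were nearly level in litters 1 and 3. They were not level before their last exons. The 22 Dnmt3b exons before its last had 0.434, 0.329 and 0.0203 RPKM in litters 1 to 3, the last of these from 1 alignment. That was below exons 7 to 22 of Dnmt3a in each litter. The sets differ, as the Dnmt3a set leaves out its 6 exons before exon 7, with 0.0600, 0 and 0.0504 RPKM. All 12 values over whole models lay above the floor, the level that 3 alignments would give. Where none is counted, counting error leaves room for that many. The floor was at most 0.0353 RPKM for these genes.

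**Figure D2:**
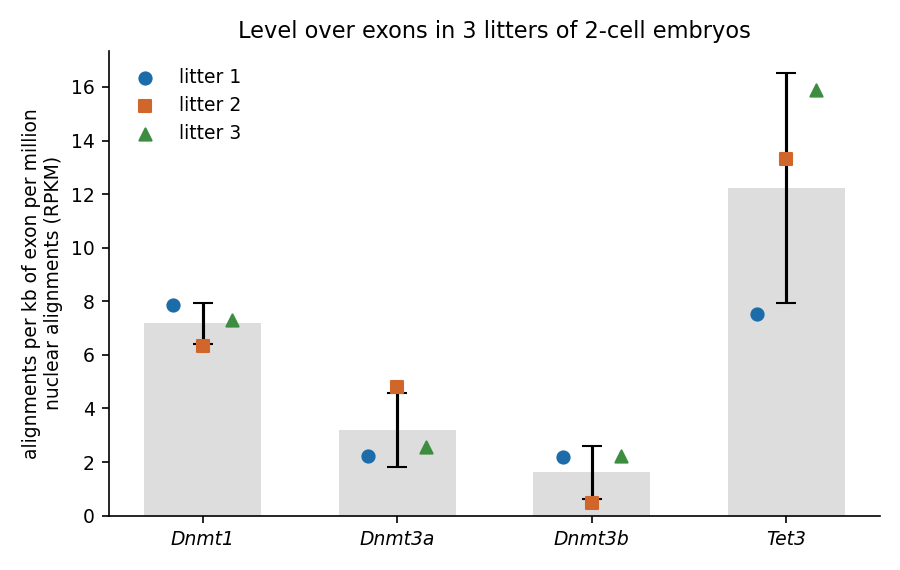
Level over exons in RPKM (y axis, alignments per kb of exon start positions per 1000000 nuclear alignments) for the 4 genes. Points are the 3 litters, bars the mean and whiskers the SD. Dnmt1 points lie close together, between 6.35 and 7.85, while Tet3 spans 7.52 to 15.9.

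The order of the genes was compared within litters, over 6 pairs, with levels over whole models. Ratios to or from Dnmt3a therefore depend on its long and little covered last exon. Those to or from Tet3 depend on its long last exon too, also the ratio of Tet3 to Dnmt1 in litter 1. The ratio of Tet3 to Dnmt1 was 0.958, 2.10 and 2.17 in litters 1 to 3, so Tet3 was higher in 2 of 3 litters, and a sign-flip permutation test (exact, two-sided) gave p = 0.5. The other 5 pairs kept their order in 3 of 3 litters, each with p = 0.25 in the same exact test and 0.3 after Benjamini-Hochberg adjustment over the 6 pairs. The smallest p that 3 litters allow is 0.25, so no pair could pass 0.05. Tet3 exceeded Dnmt3a by 3.36, 2.77 and 6.22 fold, and Dnmt1 exceeded Dnmt3a by 3.51, 1.32 and 2.87 fold. Dnmt1 exceeded Dnmt3b by 3.61, 13.8 and 3.30 fold, and Tet3 exceeded Dnmt3b by 3.46, 29.0 and 7.18 fold. Dnmt3a exceeded Dnmt3b by 1.03, 10.5 and 1.15 fold, with a geometric mean of 2.32, or 1.09 without litter 2. The geometric mean of Tet3 over Dnmt3b was 8.96, or 4.98 without litter 2, and that of Dnmt1 over Dnmt3b was 5.49, or 3.45 without it. The means over all litters rest in part on the low Dnmt3b value of litter 2, which comes from 39 exon alignments.

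The coefficient of variation between litters was 10.6% for Dnmt1, 35.0% for Tet3, 43.7% for Dnmt3a and 62.0% for Dnmt3b. For 10 kb windows of the genome the median was 71.1% at 100 to 1000 alignments and 30.5% at 1000 to 10000. The exon alignments of Dnmt1 numbered 873, 673 and 968 in litters 1 to 3, those of Dnmt3a 617, 1262 and 838, those of Dnmt3b 194, 39 and 235, and those of Tet3 2593, 4376 and 6519.

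Of the 33 windows of 10 kb that touch the 4 spans, 4 (12.1%) reached 1 RPKM in all 3 litters, against 3.16% of all windows of the genome. They were 2 of 10 windows of Tet3, 1 of 6 of Dnmt1 and 1 of 12 of Dnmt3a, while none of the 5 Dnmt3b windows reached it. The highest window of Tet3 had 5.12, 9.70 and 9.68 RPKM in litters 1 to 3, a mean above 99.3% of windows. The highest Dnmt3b window had 0.582, 0.114 and 0.670 RPKM, a mean above 91.2% of windows. These ranks set the highest window of a gene against all single windows of the genome, so they describe and test nothing. Over whole spans, introns included, the density was 0.664 ± 0.130 RPKM for Dnmt1, 0.316 ± 0.161 for Dnmt3a, 0.127 ± 0.0662 for Dnmt3b and 1.41 ± 0.523 for Tet3 (SD, n = 3).

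Alignments were concentrated in exons in each of the 4 genes. Of the alignments in the Tet3 span, 97.4% (95% Wilson interval 96.8 to 98.0%), 80.2% (79.2 to 81.3%) and 97.8% (97.4 to 98.1%) lay wholly inside exons in litters 1 to 3, where these positions make up 10.4% of the span. In the Dnmt1 span the share was 58.6% (56.0 to 61.0%), 62.2% (59.3 to 65.0%) and 78.6% (76.2 to 80.8%), with 6.05% of the span in exon positions. Dnmt3a had 84.4% (81.6 to 86.9%), 71.8% (69.6 to 73.8%) and 75.9% (73.3 to 78.3%), with 7.47% of the span. Dnmt3b had 96.5% (93.0 to 98.3%), 59.1% (47.0 to 70.1%) and 83.6% (78.9 to 87.5%), with 6.71% of the span. Amplified reads carry no molecular identifiers here and are not separate molecules, so these intervals hold counting error alone. The place of each model was chosen to hold many alignments in exons, so the shares describe the fit and test nothing.

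Alignments that touch no annotated exon had a density of 0.216, 0.0682 and 0.0535 RPKM for Dnmt1 in litters 1 to 3. Dnmt3a had 0.0170, 0.0691 and 0.0471 RPKM there, Dnmt3b 0.00546, 0.0220 and 0.0321, and Tet3 0.0206, 0.394 and 0.0381. Litter 1 was the highest for Dnmt1 and litter 2 for Tet3. Both came largely from single places and do not stand for introns as a whole. For Dnmt1, 226 alignments of litter 1 lay in 1 kb, chr9:20754000-20754999. For Tet3, most in litter 2 lay in the block chr6:83409086-83409403, just upstream of the annotated gene. Inside the placed Tet3 model, alignments not wholly in an exon had 0.0794 RPKM in litter 2. Alignments that ran over an inner exon edge by 4 bases or more made up 13.3%, 20.2% and 7.10% of alignments inside or across Dnmt1 exons, against 0.269%, 0.160% and 0 of those of Tet3. For Dnmt3a these were 4.64%, 12.4% and 5.10%. Exons of Dnmt1 and Dnmt3a are mostly short and those of Tet3 hold most alignments far from an edge, and what part of this is unspliced RNA was not tested.

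Along Dnmt1 the 33 exons of at least 72 bases were covered widely but unevenly. Of these, 21 held alignments in all 3 litters and 1, exon 20 of 188 bases, held none in any. Coding bases were covered by at least 1 read over 75.9%, 66.6% and 61.3% of their length in litters 1 to 3, and 10.4% had no read in any litter. Exons 10 and 12, shown above, were among the best covered. Exon 10 had a mean of 106, 118 and 34.6 reads per base in litters 1 to 3, and exon 12 had 108, 116 and 44.4. Exon 15 had 20.4, 23.6 and 42.3. Litter 3 was thus the lowest for exons 10 and 12 and the highest for exon 15. The short exons between them, among them exon 14, had 0 reads except exon 13 of 65 bases, which had 2.98 reads per base in litter 2. Exons that short cannot hold a whole alignment, so a 0 there is no measure of exon use.

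The last exon of Dnmt1, 353 bases with 38 of them coding, held the most alignments of any of its exons, with 281, 247 and 455 in litters 1 to 3. That was 32.2%, 36.7% and 47.0% of the exon alignments. Exon 32, of 283 coding bases, differed most by litter, with 235, 2 and 16 alignments in litters 1 to 3. Across the 33 exons, Pearson correlations of log2 RPKM (pseudocount 0.1) were 0.642, 0.624 and 0.592 between litters 1 and 2, 1 and 3, and 2 and 3. The exons share libraries and lengths, so the correlations are a description.

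**Figure D3:**
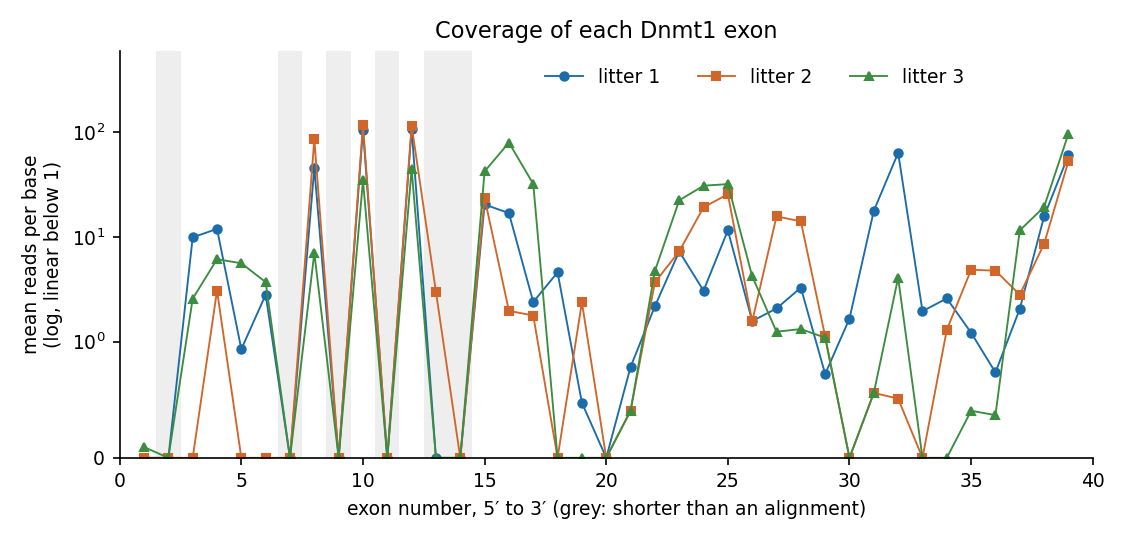
Mean reads per base (y axis, log scale, linear below 1) in each of the 39 Dnmt1 exons (x axis, from the transcript's start to its end), with a line per litter. Exons shorter than an alignment, in grey, are at or near 0, and exons 10, 12 and 39 are high in all litters.

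The start of Dnmt1 was hardly seen. The most upstream first exon, that of Dnmt1-202 at chr9:20764178-20764333, had 0 reads in all litters, as did the first exon of Dnmt1-201 at chr9:20757153-20757424. The first exon of Dnmt1-203 at chr9:20756291-20757068, which overlaps that of Dnmt1-207, had 1 alignment, in litter 3. A count of 0 allows up to 3 alignments by counting error. The Dnmt1-203 first exon, with 707 start positions, had 0, 0 and 0.0349 RPKM in litters 1 to 3. The whole model had 7.85, 6.35 and 7.32 RPKM. With all of these first exons nearly or wholly without reads, the oocyte and somatic starts could not be told apart. Why reads were lacking there was not tested. Over the first 1 kb of joined exons coverage was 1.93, 0.265 and 0.349 reads per base, against 23.5, 21.5 and 39.1 over the last 1 kb. The ratio of last to first was 12.2, 81.1 and 112 in litters 1 to 3.

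The long and short forms of Dnmt3a share exons from exon 7 of the model on. Exon 7 held 0, 2 and 24 alignments in litters 1 to 3, and exon 8 held 7, 160 and 55. The 6 exons before exon 7, found in the long form, held 1, 0 and 1 alignments in litters 1 to 3. The 16 shared exons between them and the last held 115, 856 and 282. First exons of the short-form models Dnmt3a-203 and Dnmt3a-205 had 0 reads in all litters. The 6 long-form exons, with 490 start positions, thus had 0.0600, 0 and 0.0504 RPKM in litters 1 to 3. The 16 shared exons had 3.98, 31.1 and 8.21 RPKM. Counts in the long-form exons and in the short-form first exons were under the limit of 3 alignments. Which form was present could therefore not be told, and why reads were lacking on this side was not tested.

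Among the shared exons, litters differed most in a stretch near their start. Exons 7 to 10 held 29, 651 and 80 alignments, or 2.39, 56.4 and 5.55 RPKM, in litters 1 to 3. Exon 10, of 157 bases, alone had 13, 320 and 0. The other 12 shared exons before the last had 5.13, 12.8 and 10.1 RPKM. Summed over its length, the last exon was the most even, with 2.18, 1.85 and 2.03 RPKM, a mean of 2.02 ± 0.164 (SD, n = 3). Within it the litters differed. In litters 1 to 3, chr12:3907602-3907775 had 43.5, 49.9 and 109 reads per base and chr12:3908070-3908200 had 96.0, 41.0 and 38.8. Exon 22, next to it, had a mean of 45.5, 128 and 128 reads per base. Exon 21, at 70 bases, cannot hold a whole alignment, yet had 18.6, 21.6 and 28.4 reads per base, from alignments that ran a few bases over its edges.

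The last exon of Dnmt3a is annotated at 6838 bases, of which 139 are coding, and its alignments lay mostly at its start. Coverage was 44.0, 28.2 and 23.5 reads per base in litters 1 to 3 in the 500 bases that begin 6000 bases before the annotated end and run upstream. The final 500 bases had 0 reads in every litter. All 3 litters reached 5 reads in 3 blocks of this exon, at chr12:3907602-3907775, chr12:3907923-3907949 and chr12:3908070-3908200. Over the whole of the joined Dnmt3a exons, 52.0% of bases had no read in any litter, and 17.4% of the coding bases had at least 5 reads in all litters.

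Dnmt3b was covered almost wholly in its last exon. This exon of 1473 bases held 176, 26 and 234 alignments in litters 1 to 3, which was 90.7%, 66.7% and 99.6% of the exon alignments. The 22 exons before it held 18, 13 and 1. Of 19 exons of at least 72 bases, 12 held no alignment in any litter. Among coding bases 76.1% had no read in any litter, and none had 5 reads in all litters. Exon 15, shown above, had 12, 9 and 0 alignments. In the last 500 bases of the gene the coverage was 9.05, 3.37 and 34.1 reads per base, and in the 500 bases before them 16.3, 0.0860 and 0.118. Litter 1 therefore covered a longer stretch of the last exon than litters 2 and 3. The 2 blocks with at least 5 reads in all litters, chr2:153512990-153513101 and chr2:153513385-153513403, lie in this exon.

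Dnmt3a and Dnmt3b have 10 exons of equal number and length in these models, between exons 12 and 22, most of which encode the catalytic part of the protein. Their bases were identical at 50 to 84.9%, and no run of identical bases was longer than 17. An alignment of 72 matching bases therefore could not fit both. Over these exons Dnmt3a held 80, 204 and 202 alignments in litters 1 to 3, and Dnmt3b held 0, 2 and 0. In exon 22, identical at 76.5% of bases, Dnmt3a had 59, 168 and 178 alignments and Dnmt3b had 0 in all litters. In exon 20, identical at 84.9%, Dnmt3a had 14, 18 and 7 and Dnmt3b again had 0. Exons 20 and 22 were singled out after their values were seen. Over all 10 exons, mean coverage of Dnmt3a was above that of Dnmt3b without overlap of the litters in 4, neither gene had a read in 3, and in the other 3 the litters overlapped. In exon 16 litter 2 went the other way, with 1 alignment in Dnmt3a and 2 in Dnmt3b.

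**Figure D4:**
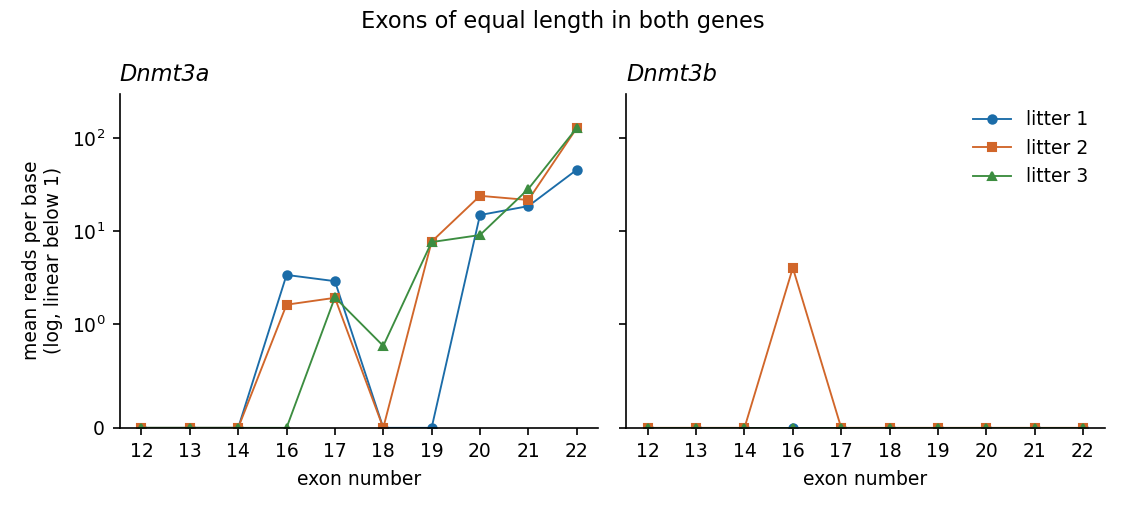
Mean reads per base (y axis, log scale, linear below 1) in the 10 exons of equal length in Dnmt3a (left) and Dnmt3b (right), with a line per litter. Dnmt3a coverage is highest in exons 20 to 22 in all litters, while Dnmt3b has reads in exon 16 only, in litter 2.

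Tet3 coverage centred on one long coding exon. Exon 3, of 2158 bases with 2113 coding, held 1728, 3146 and 3913 alignments in litters 1 to 3, or 24.3, 46.5 and 46.3 RPKM. That was 66.6%, 71.9% and 60.02% of the exon alignments. The printed stretch of this exon had a mean of 376, 315 and 388 reads per base, and a block of 1177 bases around it, chr6:83352787-83353963, reached 5 reads throughout in all litters apart from gaps of up to 50 bases. The 7 exons between it and the last held 83, 90 and 2 alignments, or 3.98, 4.53 and 0.0806 RPKM. Litter 3 was nearly without reads there although its exon 3 level was like that of litter 2.

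The last exon of Tet3, 7453 bases with 1781 coding, had 3.11, 4.76 and 8.72 RPKM in litters 1 to 3. Its coding part had 2.13, 6.005 and 4.70 RPKM and its noncoding part 3.45, 4.44 and 10.1. In this exon 6 blocks, between 42 and 303 bases long, reached 5 reads in all litters. Reads lay in islands that differed by litter. The 500 bases that begin 4500 bases before the end and run upstream had 5.29, 12.4 and 144 reads per base, and those that begin 2500 bases before it had 37.7, 1.07 and 0.754. Over the last 1 kb of joined exons Tet3 had 5.76, 1.73 and 3.601 reads per base, against 2.15, 21.3 and 20.5 over the first 1 kb. The ratio of last to first was thus above 1 in litter 1, at 2.68, and below 1 in litters 2 and 3, at 0.0813 and 0.175.

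**Figure D5:**
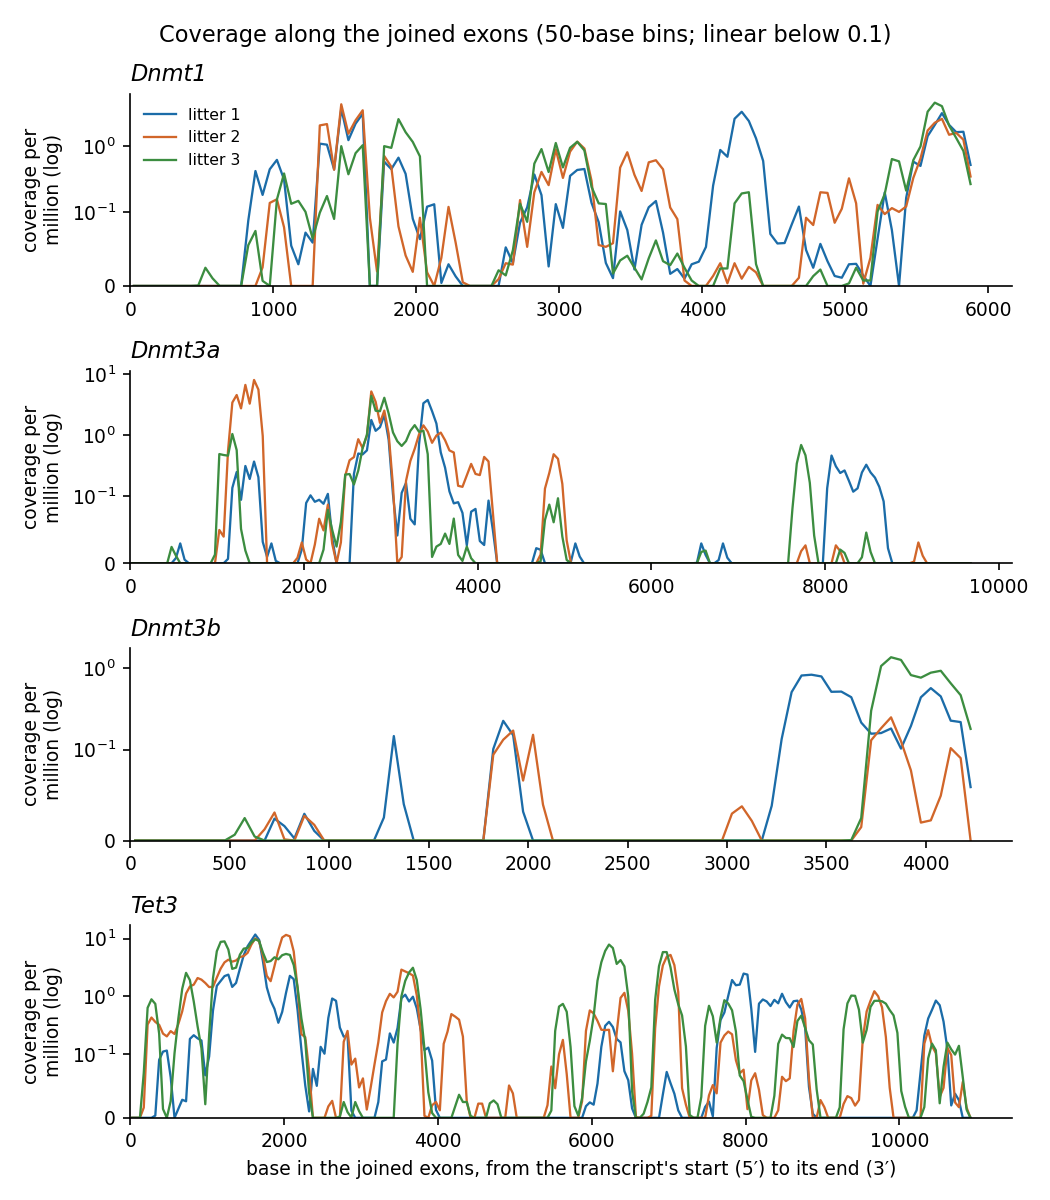
Coverage per 1000000 nuclear alignments (y axis, log scale, linear below 0.1) in bins along the joined exons of each gene (x axis, bases from the transcript's start to its end), with a line per litter. Dnmt1 is covered along most of its length, Dnmt3b near its end, and Tet3 most strongly in its exon of 2158 bases.

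At the start of Tet3, 1 of 3 annotated first exons carried reads. The most upstream, that of Tet3-204 at chr6:83409005-83409082, had a mean of 0.449, 12.4 and 18.0 reads per base in litters 1 to 3. The first exons of Tet3-202 and Tet3-203 had 0 reads in all litters. In litter 2 the reads ran on upstream of the annotated exon, in a block at chr6:83409086-83409403 with up to 378 reads and 886 alignments touching it. The same block had 4 alignments in litter 1 and 11 in litter 3. Litter 2 had 1020 alignments in the Tet3 span that touch no annotated exon of the gene, most of them in this block. Litter 1 had 56 such alignments and litter 3 had 123. Of the litter 3 alignments at this exon, 5 lay wholly inside it.

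Other blocks outside annotated exons were mostly found in 1 litter. In Dnmt1, chr9:20754229-20754533 reached 71, 0 and 2 reads in litters 1 to 3. In Dnmt3a, chr12:3870234-3870350 reached 24 reads in litter 2 and 0 in the other litters, and chr12:3852267-3852363 reached 5, 12 and 56 reads in litters 1 to 3. In Dnmt3b, chr2:153485582-153485649 reached 28 reads in litter 3 and 0 in the others. In Tet3, chr6:83347840-83348050 reached 1, 48 and 60 reads. At 5 reads in all litters, 11 blocks of Dnmt1 and 2 of Dnmt3b all lay in exons, as did 7 of 8 blocks of Dnmt3a and 8 of 9 of Tet3. The remaining Tet3 block, chr6:83368105-83368142, lies inside the placed span of 5430434F05Rik, an annotated transcript of unknown coding status.

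Repeats, which share their start with another alignment in that litter, were 44.9% ± 2.72 of alignments in the Dnmt1 span, 45.4% ± 8.27 for Dnmt3a, 17.0% ± 9.95 for Dnmt3b and 57.3% ± 6.57 for Tet3 (SD, n = 3). Over all nuclear sequence the shares were 72.2%, 65.0% and 74.0% in litters 1 to 3. The share moves with depth, and Dnmt3b, with the lowest share, also has the fewest alignments. No start position in the 4 spans held 20 or more alignments in all litters.

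Of 28 other genes of the pathway, 6 could be placed on their chromosomes in all litters by the same search, and only those have values. Dnmt3a, Dnmt3b and Tet3 did not meet this rule either and were read at their fixed spans. Trim28, a corepressor that protects imprinted methylation, had 84.9, 84.9 and 139 RPKM in litters 1 to 3. Usp7, a deubiquitinase that binds Dnmt1, had 38.0, 49.1 and 48.5. Ddb1, an adaptor of a ubiquitin ligase, had 13.5, 10.7 and 14.7. Setdb1, a histone H3K9 methyltransferase, had 4.85, 9.30 and 10.1, and Hells, a chromatin remodeller needed for DNA methylation, had 4.51, 2.82 and 5.55. Uhrf1, which brings Dnmt1 to hemimethylated DNA, had 2.29, 3.67 and 3.90 RPKM, below Dnmt1 in each litter. Over whole models, the levels of Trim28 and Usp7 lay above those of all 4 methylation enzymes in each litter. List genes with few covered exons got no value, and long last exons lower the values of Dnmt3a and Tet3. Exon 3 of Tet3 alone had 24.3, 46.5 and 46.3 RPKM in litters 1 to 3.

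Among those not placed were Dnmt3l, Uhrf2, Tet1, Tet2, Dppa3, Zfp57, Zfp445, Tdg, Mbd3, Mbd4, Ehmt1, Ehmt2, Pcna, Ctcfl, Kdm1b, Ogt, Npm2, Dcaf1, Kdm2b, Mat2a and Ahcy. A gene is placed only where many exons are covered, so this says nothing of their level. Of 10 markers of oocytes and early embryos, Nlrp5, a maternal protein gene, was placed, with 15.0, 19.0 and 11.3 RPKM. None of 10 cumulus and granulosa cell markers and none of 4 sperm markers was placed. With 9 of 10 oocyte markers not placed either, this does not check for those cells.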

How the data were processed

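Per the labels' protocols, RNA of 3 litters was amplified with a Nugen Ovation kit and the cDNA was sheared. Per the submitters' processing notes, alignment was to mm9 with Bowtie, whose settings the sources used here do not give. The authors deposited a coverage signal, whole reads over each base without scaling, per the file headers. Alignments of 72 bases were recovered from it, with 0 negative starts. Models came from GENCODE M21 (GRCm38) as exon lengths and distances only. Each was laid on the span where distinct starts inside exons, summed over allowed overhangs of 0 to 6 bases, were most. The middle of tied places was taken. A shift of a few bases could thus hold slightly more starts wholly inside exons. No coordinate was converted. On a whole chromosome a gene counted as placed where all litters had the same best place, within 30 bases, with a score at least 1.5 times the next. The recovery of starts and the placement within a span were tested on simulated data. The chromosome search was tested only with the Dnmt1 starts moved to another chromosome, and not for the other members. The members and lists were chosen with earlier results of these data known. All 4 members and every placed list gene were named. A block is a run at 5 reads or more in all litters, with gaps up to 50 bases closed. Alternatives were the scaling, distinct starts, other models, thresholds and leaving out a litter. Python 3.11.15, numpy 2.4.6, pandas 2.3.3 and scipy 1.17.1 were used.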

Additional observations from a re-analysis of the deposited data

How the results depend on the processing

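Of the alternative values, 136 stayed within 1 SD of the litters, or 1.5 times for a count, and 26 moved further. Leaving out 1 of 3 litters cannot move a mean by 1 SD, so those means stayed within it by construction. The gene ratios, which have no SD, were also counted as staying, although Dnmt3a over Dnmt3b went from 2.32 to 1.09 without litter 2. The count of 136 is therefore no measure of robustness. Counting distinct start positions gave exon levels of 13.4 for Dnmt1, 5.29 for Dnmt3a, 4.64 for Dnmt3b and 17.2 RPKM for Tet3, and span levels of 1.26, 0.545, 0.364 and 1.96. For Dnmt1, scaling by all alignments gave 5.13 RPKM over exons and 0.474 over the span, mean coverage per exon base gave 5.08, and the model Dnmt1-202 gave 8.86, without the long first exon of Dnmt1-203. The model Tet3-203, with a shorter last exon, gave 17.7 RPKM. With 500 bases at each end the mean ratio of last to first was 122 for Dnmt1, 0 for Dnmt3a and 3.03 for Tet3, against 68.5, 0.239 and 0.979 with 1 kb. Where the first end had less coverage than 3 alignments give, that floor stood in for it. For Dnmt3a this was so in all litters, so its value compares no ends. Its first 1 kb had 0.072, 0 and 0.098 reads per base in litters 1 to 3, and its last 1 kb had 0.083, 0.072 and 0. The Tet3 ratio, below 1 on average, was above 1 with 500 bases and also at 1.43 without litter 2 and 1.38 without litter 3, and it was 0.128 without litter 1. Blocks at 2 reads numbered 17 in Dnmt1, and at 20 reads 4 in Dnmt1, 3 in Dnmt3a, 0 in Dnmt3b and 4 in Tet3. Windows at 0.5 RPKM numbered 2 in Dnmt1, and at 2 RPKM 0 in Dnmt1 and 0 in Dnmt3a. Leaving out a litter gave 1 to 3 blocks in Dnmt3b and 9 to 16 blocks in Tet3, with 16 without litter 1. The causes of these differences were not tested. No paired analysis was possible because there is 1 group and thus no second group to pair litters with. Most counts in the first exons and the coding exons of Dnmt3b were 0 to 3, which is no more than a count of 0 allows.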
